A study of Caligus rogercresseyi with 6 samples.

Results

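In the sea louse Caligus rogercresseyi, 159 of the 44089 transcript contigs of the series were concentrated in the adult male library. They were chosen on measured values. For each contig the counts of the egg, copepodid, chalimus, adult female and adult male libraries were scaled to a library total of 1000000 (CPM). A contig was a member when adult male held 80% or more of the sum of its 5 CPM values and had 50 or more counts. High male levels and their distance from the other libraries are therefore descriptions of the choice, carry no test, and support nothing by themselves.

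C. rogercresseyi is a copepod that lives on the skin of salmon. Its infective copepodid attaches to a fish and moults through chalimus stages, anchored by a frontal filament, into adults of separate sexes. Adult males mate on the host by transferring spermatophores to females. Males of copepods carry testes, reproductive ducts and sex-specific clasping appendages, and in whole-animal RNA the transcripts of these tissues are mixed with those of gut, muscle, nerve and cuticle.

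The samples were RNA from pooled, whole, wild-type animals collected from farmed Atlantic salmon, and the labels gave eggs, copepodids, chalimi, adult females, adult males and an adult group with no sex stated, with 1 library each. The number of animals in a pool and the sex of the chalimi were not given in the sources used here. With 1 library per group no difference has a replicate check and no p-value is given. The unsexed adult file repeated the data of both sexes in 1 joint count (its total differed from their sum by 0 counts), so it was used only to see how counts were assigned. The adult male library had 130218357 counts, and the other 4 had between 78380827 (copepodid) and 149426248 (adult female). In whole-animal pools, fewer cells of a type and less RNA per cell cannot be told apart.

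The files name contigs by identifier alone and give no gene names or sequences. No function, tissue or protein is therefore assigned to any member, the male label could not be checked against marker genes, and no sequence is printed. Lengths were recovered from the deposited counts and FPKM (fragments per length and library size), and levels are compared between contigs only on the FPKM scale.

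The 159 members were 0.814% of the 19534 contigs with 50 or more male counts, and held 2.92% of the male counts (Wilson 95% interval 2.920% to 2.925%, counting error only). Most of that came from a few contigs. The 10 members with the most male counts held 53.0% of all member counts, and the first 20 held 70.2%. On the FPKM scale the male levels of members ran from 0.505 to 3772, with a median of 27.3. Of the members, 46 had a male level of 100 FPKM or more, 56 between 10 and 100, 47 between 1 and 10 and 10 under 1. The median male FPKM of all contigs with 50 or more male counts was 4.28. Members had a median length of 965 nt, against 1590.5 nt for all contigs with 50 or more male counts and 1113 nt for the 287 contigs with a male share of 70% to under 80%.

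**Figure D1:**
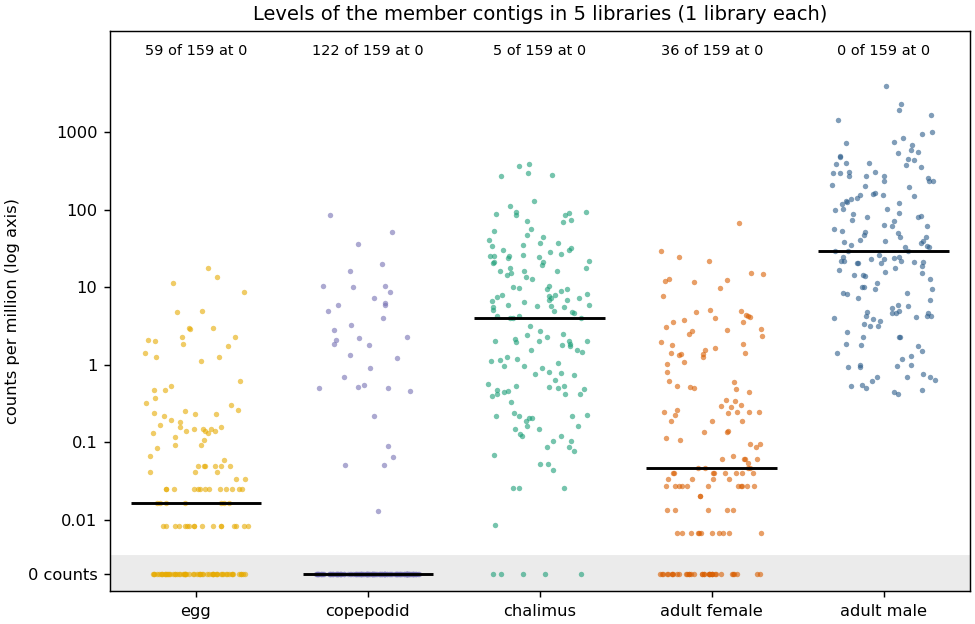
Each point is 1 of the 159 members, placed by its CPM (log axis) in each of the 5 libraries, with contigs at 0 counts on the grey strip and the median as a black line. The median was 28.8 CPM in adult male and 4.03 CPM in chalimus, and 122 members lay at 0 in copepodid against 5 in chalimus.

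The member with the most male counts was GAZX01020394 (2995 nt). It had 511498 counts in adult male, 41965 in chalimus, 2786 in copepodid, 2139 in egg and 754 in adult female. Chalimus stood second and the adult female lowest, so both adults lay at the ends of its range. With scaling by trimmed mean of M-values (TMM), adult male was 12.4-fold above chalimus (95% exact counting interval 12.2 to 12.5) and 862-fold above adult female (802.5 to 927). This contig alone was 13.4% of the member counts.

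The highest male level per length belonged to GAZX01006232 (607 nt), at 3772 FPKM in adult male. Its levels were 458 FPKM in chalimus, 110 FPKM in adult female, 3.56 FPKM in copepodid and 2.05 FPKM in egg. All 5 libraries thus counted it, and the female level was well above those of egg and copepodid. Adult male was 9.34-fold above chalimus (9.23 to 9.45) and 37.9-fold above adult female (37.2 to 38.7). Next per length came GAZX01021591 (356 nt), at 2069 FPKM in adult male, 59.6 FPKM in chalimus and 5.50 FPKM in adult female, with 4 counts in copepodid and 0 in egg. Relative to egg it was at least 29633-fold higher, taking 3 counts in the empty library and the lowest of 3 scalings. Its male share was 96.9%.

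The limits of the choice cut through a continuous range. Of the members, 81 had a male share between 80% and 85%, 33 between 85% and 90%, 27 between 90% and 95% and 18 of 95% or more, and the median share was 84.8%. Just inside the share limit were GAZX01016387, at 2682 male and 577 chalimus counts, and GAZX01004740, at 522 and 111 counts, with shares of 80.004% and 80.02%. Just outside were GAZX01031757, at 7842 male and 1750 chalimus counts, and GAZX01029692, at 176 and 31 counts, with 79.99% and 79.98%. At the count limit, GAZX01043111 (55 male counts) and GAZX01022188 (57) were inside, and GAZX01017578 (46) and GAZX01010374 (42) were outside. Another 197 contigs reached the share limit with fewer than 50 male counts. A share limit of 70% gave 446 contigs and one of 90% gave 45.

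By the choice itself, every member lay at least 4-fold above each of the other 4 libraries on the scale of library totals. With TMM scaling all 159 also passed a rule of size (4-fold, and 50 or more counts in the higher library) against each library. Over all contigs tested, that rule called 3.55% higher in adult male than in chalimus, 16.9% than in adult female, 16.9% than in egg and 21.5% than in copepodid. Nothing is read from the members' counts here, since the choice fixed them. The rule does not fix how the remaining part of each member was divided over the other libraries, and the following results describe that division.

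Chalimus was the library nearest to adult male for most members. It held the second-highest CPM in 135 of 159, adult female in 18, copepodid in 4 and egg in 2. The median share of a member's summed CPM was 11.04% in chalimus, 0.189% in females, 0.0359% in eggs and 0 in copepodids. The median log2 ratio (TMM scaling, 0.5 counts added) of adult male to chalimus was 3.13 over the members and -0.14 over all contigs tested. Against adult female it was 8.36 over the members and -0.02 over all tested, against egg 9.89 and -0.34, and against copepodid 10.80 and -0.62. The last 3 member medians include contigs at 0 counts and depend on the counts added, so they are not bounds. Contigs tested had 50 or more counts in either library, whereas members needed 50 in adult male. Over all contigs with 50 or more male counts, the median log2 ratio was -0.004 against chalimus and 0.25 against adult female. It was 0.008 against egg and 0.61 against copepodid.

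**Figure D2:**
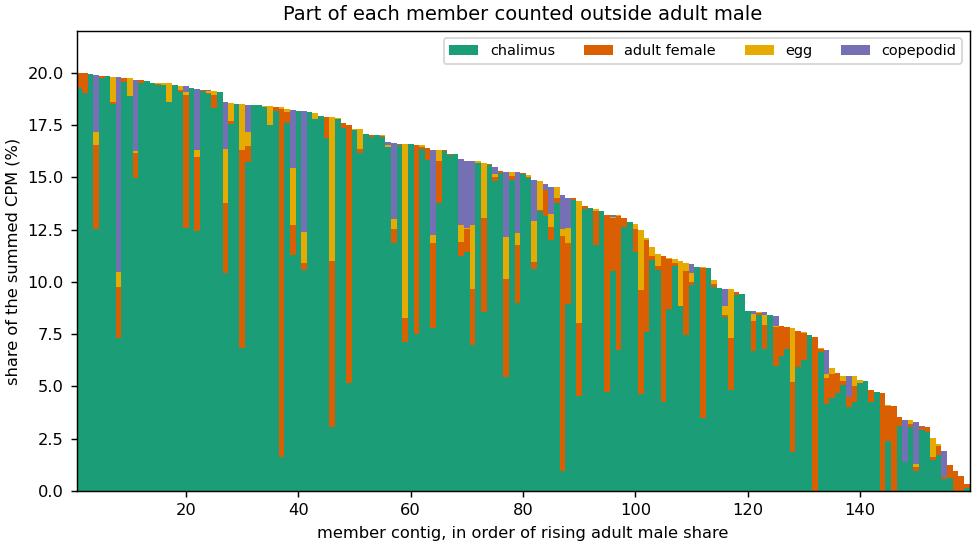
Each bar is 1 member, ordered from the lowest adult male share on the left, and its height is the part of its summed CPM (%) counted outside adult male, divided by library. Chalimus (green) made up more than 50% of the bar in 131 of the 159 members, and adult female (orange) was the largest part in 18.

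Set beside the other non-male libraries, with no minimum of counts so that all 159 members enter, chalimus had the higher CPM in most. These comparisons were chosen after the values were seen, share the chalimus library and carry no test. The chalimus CPM was above egg in 150 members and below it in 4, with 5 at 0 in both. It was above copepodid in 149 and below it in 5, again with 5 at 0 in both, and above adult female in 141 and below it in 18. Among the 19534 contigs with 50 or more male counts it was above egg in 44.6%, above copepodid in 79.0% and above adult female in 51.3%. Of the members, 122 had 0 counts in copepodid, and whether some copepodid counts were left out was not tested.

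The nearness of chalimus was not confined to the members. Among contigs highest in adult male, chalimus was next in 55.9% of the 1345 with a male share of 30% to under 40%, 67.7% at 40% to 50%, 70.1% at 50% to 60%, 76.0% at 60% to 70% and 85.02% at 70% to 80%. Among members it was next in 91.4% of the 81 contigs between 80% and 85%, 81.8% between 85% and 90% and 92.6% between 90% and 95%. In the 18 contigs at 95% or more it was next in 9, with adult female next in 6 and copepodid in 3. That last group is small, and 4 of its contigs had 0 counts in chalimus. In GAZX01028738, 1 of the 3 with copepodid next, copepodid and chalimus had 1 count each. The same rule applied to adult female found 442 contigs, of which chalimus was next in 81.0% and adult male in 3.39%. Applied to chalimus it found 481 contigs, with adult male next in 37.2%, copepodid in 28.9%, egg in 17.7% and adult female in 10.4%. Chalimus was next in 40.2% of the 450 contigs concentrated in egg and in 3.74% of the 6948 concentrated in copepodid, of which 90.1% had 0 counts in all other libraries.

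**Figure D3:**
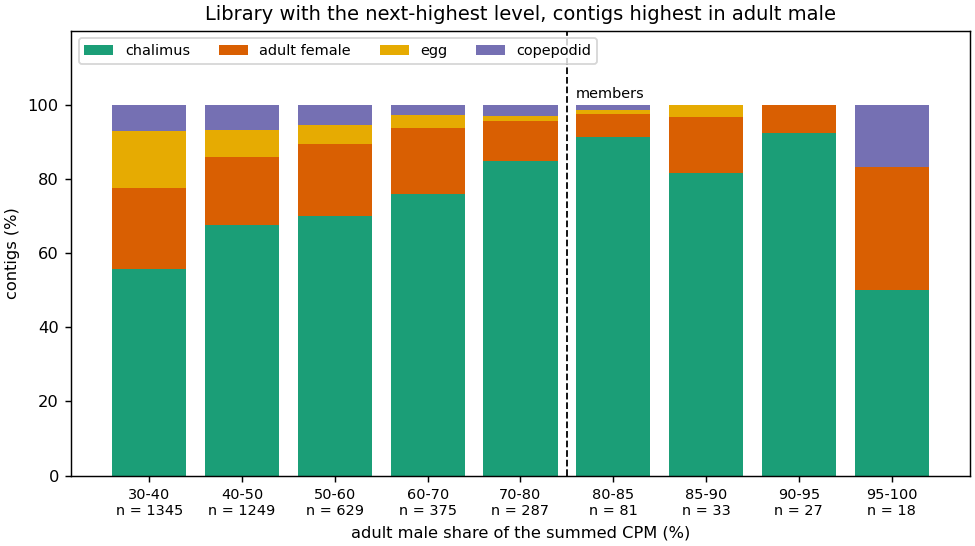
Contigs with 50 or more male counts that were highest in adult male are grouped by their male share, with the number in each group under its bar, and coloured by the library with the next-highest CPM (% of the group). The chalimus part rises from 55.9% at a male share of 30-40% to 85.02% at 70-80%, is 81.8% to 92.6% in the first 3 groups of members, and is 50% in the last.

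The chalimus library also weighed most on how many contigs reached the limit. With the chalimus library left out of the shares, 844 contigs would be members, and all 159 stayed among them. Without adult female there would be 286, without copepodid 193 and without egg 181.

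Among the 154 members counted in chalimus, the ratio of male to chalimus CPM had a median of 7.43. It was under 10 in 96 members, between 10 and 100 in 55 and 100 or more in 3. Those 3 were GAZX01034905, GAZX01031167 and GAZX01009620. GAZX01034905 (621 nt) had 89915 counts in adult male, 210 in adult female, 93 in chalimus, 23 in egg and 0 in copepodid. It was the member with the highest male share, 99.7%, and with TMM scaling it was 979.9-fold above chalimus (799.8 to 1214) and 544-fold above adult female (475 to 626). GAZX01031167 (436 nt) followed a like course, at 26100 counts in adult male, 187 in adult female, 145 in chalimus, 1 in egg and 0 in copepodid.

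The 5 members with 0 counts in chalimus were all low. They were GAZX01013566 (120 male counts), GAZX01042350 (90), GAZX01012575 (82), GAZX01002453 (71) and GAZX01043111 (55). Each also had 0 counts in egg and copepodid and between 1 and 5 counts in adult female. GAZX01013566 was at least 35.7-fold above chalimus. No member had 0 counts in all of the other 4 libraries. A count of 0 allows up to 3 counts, or 0.0258 CPM in chalimus.

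Adult females counted most members at low levels. In adult female 108 of 159 members (67.9%) had fewer than 50 counts and 36 had 0, a count that allows up to 0.0201 CPM. Among all 19534 contigs with 50 or more male counts, 2152 had fewer than 50 counts in adult female and 0.660% had 0. Among the 287 with a male share of 70% to under 80%, 184 had fewer than 50 and 15.7% had 0. The choice itself favours low counts outside adult male, so nothing is read from these contrasts. The ratio of male to female CPM was under 10 in 5 of the 123 members counted in females, between 10 and 100 in 48 and 100 or more in 70. Ranked with 0.5 counts added, the member with the largest ratio was GAZX01002694 (673 nt), at 40083 counts in adult male, 7934 in chalimus and 0 in adult female, egg and copepodid. It was at least 15332-fold higher in adult male than in adult female. GAZX01015980 (973 nt) ranked next, with 58019 counts in adult male, 10311 in chalimus, 3 in egg, 1 in females and 0 in copepodids. Its female ratio was 73716-fold with a counting interval of 13230 to 2911660, so the order of these contigs is not settled. Both had a 5- to 6-fold gap to chalimus, 5.12-fold (4.998 to 5.25) and 5.70-fold (5.58 to 5.82). These contigs, picked by rank, were thus absent or nearly absent in females and clearly counted in chalimus. By contrast, GAZX01013566 and GAZX01042350 each had 1 count in adult female and 0 in chalimus.

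The 18 members for which adult female came second held 0.152% of the male counts, had a median length of 621.5 nt (1000 nt for the 135 with chalimus second) and had a median male level of 4.03 FPKM, against 33.4 FPKM for those 135. After GAZX01034905, the highest of them per length was GAZX01020811 (577 nt). Its level was 512 FPKM in adult male, 49.9 FPKM in adult female and 28.0 FPKM in chalimus, with 0 counts in egg and copepodid. The female level was above the chalimus level, and adult male was 11.4-fold above female (11.00 to 11.7) and 20.7-fold above chalimus (19.8 to 21.7). Also among the 18 were GAZX01023175, at 2681 male, 628 female and 48 chalimus counts, and GAZX01039767, at 611 male, 92 female and 6 chalimus counts. For 5 of the 18, with 0 counts in chalimus, the order rests on 1 to 5 female counts. GAZX01031167 had 1.251 CPM in adult female and 1.247 CPM in chalimus, so its order is not settled either. Levels were also close in GAZX01017002 (0.241 CPM in adult female, 0.224 CPM in chalimus) and GAZX01014130 (0.067 CPM in adult female, 0.058 CPM in egg). The order was not checked against counting error in all of the 18.

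In raw counts, egg and copepodid counted fewer members still, and both libraries had lower totals than adult female. How much of this comes from depth was not tested. In egg 59 members had 0 counts and 136 had fewer than 50. In copepodid 122 had 0 and 133 had fewer than 50. Of all 19534 contigs with 50 or more male counts, 1.26% had 0 counts in egg and 14.2% in copepodid. Fewer than 50 counts were found for 1950 of them in egg and 5340 in copepodid. Of the 287 with a male share of 70% to under 80%, 19.2% and 72.1% had 0, and 225 and 231 had fewer than 50. The choice favours such low counts, so nothing is read from these contrasts either. The copepodid table lacks counts more widely: 687 contigs had 0 counts there and 100 or more in each of the other 4 libraries, and 1.08% of the total behind its FPKM is not in its table. A member at 0 in copepodid is therefore at 0 in that table, and whether some of its counts were left out was not tested. Of the members, 34 were counted in all 5 libraries, 60 had 0 in 1 library, 33 in 2 libraries and 32 in 3 libraries.

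Ranked with 0.5 counts added, the 2 members with the largest ratio to copepodid were GAZX01033638, with 186234 male counts, and GAZX01034905, both at 0 there. Bounds of at least 25602-fold and 12361-fold hold only if no copepodid counts of these contigs were left out. Ranked in the same way, GAZX01021590 followed GAZX01021591 for the ratio to egg, at 70676 male counts and 0 in egg (at least 21832-fold). The order rests on the counts added, since GAZX01029469 had 52711 male counts and only 1 in egg.

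Few members were nearest to copepodids or to eggs. With copepodid second were GAZX01016352, GAZX01009620, GAZX01009619 and GAZX01028738. For GAZX01028738 the order rests on 1 count in copepodid and 1 in chalimus, so it is not settled. GAZX01016352 (846 nt) had 18060 counts in adult male, 1473 in chalimus, 1266 in copepodid, 623 in adult female and 151 in egg. Its counts were spread over all libraries, and with TMM-scaled shares it fell below the limit, the only member to do so. GAZX01009620 (652 nt) had 7310 counts in adult male, 55 in copepodid, 38 in chalimus, 6 in adult female and 1 in egg. With egg second were GAZX01013080 (184 male, 17 egg, 14 chalimus and 3 female counts) and GAZX01012862 (64, 4, 3 and 3). In both, the egg and chalimus counts differed by less than their counting error allows to order, since the counting intervals of the male-to-egg and male-to-chalimus folds overlapped almost wholly (8.20 to 23.7 and 7.74 to 24.9 for GAZX01013080).

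Many members had neighbouring identifiers, a property that the choice did not use. Of the 159 members, 63 (39.6%) had a member as the next or previous identifier, in 23 runs of consecutive numbers. There were 16 runs of 2, 3 of 3, 2 of 4, 1 of 6 and 1 of 8. The same share was 33.9% for the 442 contigs concentrated in adult female and 43.9% for the 481 in chalimus. It was 21.3% for the 450 in egg and 68.2% for the 6948 in copepodid. For the 287 contigs with a male share of 70% to under 80% it was 21.3%, and for all contigs with 50 or more male counts 89.3%. These shares also depend on the number of contigs in each set, and no expected share was computed. In every run all contigs had the same next-highest library, chalimus in 21 of the 23. Chalimus was next in 84.9% of all members, and counts within runs were not fully separated, so nothing is read from this agreement. Among the 157 other contigs with 50 or more male counts directly beside a member, the median male share was 27.0% and 31.8% reached 50%. Among the 19218 remaining contigs the median was 17.3% and 6.46% reached 50%.

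The run with the highest levels per length was GAZX01021590 to GAZX01021593, of 307 to 476 nt. Its 4 contigs had 1140, 2069, 771 and 1047 FPKM in adult male, and 34.0, 59.6, 62.1 and 46.9 FPKM in chalimus. In adult female they had 152, 293, 4 and 406 counts, and in egg at most 3. All were high in adult male, and the female counts differed widely. When the sexes were counted together, GAZX01021592 gained 99 counts while GAZX01021590 and GAZX01021591 lost 53 and 46, so the female counts of single contigs in this run are uncertain.

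The longest run was GAZX01040161 to GAZX01040168, with 8 members of 730 to 2660 nt, 6 of which were near one another in length. Their male counts were 546, 498, 1303, 701, 647, 546, 606 and 1489 in identifier order. Their chalimus counts were 59, 46, 139, 91, 111, 53, 65 and 248. Summed over the run there were 6336 counts in adult male, 812 in chalimus, 7 in adult female, 3 in egg and 0 in copepodid. Male shares lay between 83.9% and 90.5%, whereas the contigs on either side, GAZX01040160 and GAZX01040169, had 4.90% and 17.9%.

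The second-longest run, GAZX01038180 to GAZX01038185, lay in a larger block. Within 21 consecutive identifiers from GAZX01038175 to GAZX01038195, 18 contigs were counted in adult male and chalimus and had 0 counts in egg, copepodid and adult female. Of the 18, 11 were members and 7 fell below the 80% limit. Leaving out the lowest and the highest, the male shares of the other 16 lay between 74.9% and 83.0%, so the limit divides contigs with similar shares. All 18 together were 609 to 1459 nt long, and their summed counts were 48451 in adult male and 9781 in chalimus. Over all contigs with 50 or more male counts, 84 were counted in chalimus and had 0 counts in egg, copepodid and adult female, of which 27 were members and 34 had a male share of 70% to under 80%.

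**Figure D4:**
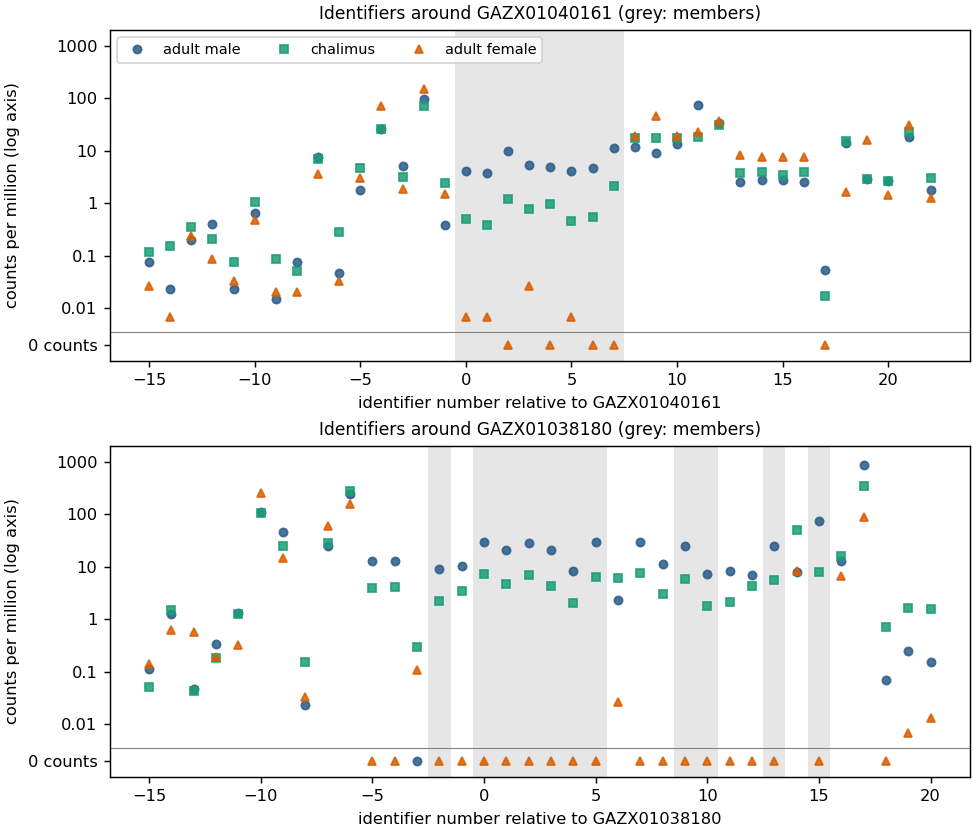
Levels in CPM (log axis) of adult male, chalimus and adult female for the contigs around the runs that begin at GAZX01040161 (top) and GAZX01038180 (bottom), by identifier number relative to that contig, with members shaded grey and contigs at 0 counts below the line. Inside both runs adult male lies above chalimus and adult female is at 0 to 4 counts. In the lower panel 7 unshaded contigs of the surrounding block also have adult male above chalimus with adult female at 0 counts.

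Counts within runs could not be fully separated between contigs. When the authors counted the female and male data together, the count of 68 members (42.8%) equalled the sum of the separate counts, against 43.9% of all contigs with 50 or more male counts. The match held for 19 of the 63 members in runs (30.2%) and for 49 of the 96 outside them (51.0%). In the run from GAZX01040161 none of the 8 counts matched, with differences from -8.62% to 6.34%, while their sum was 6343 counts both ways. In the block around GAZX01038180 none of the 18 matched, with differences from -4.46% to 7.90%, and the sum was again equal, at 48451. Of the 16 runs with any difference, 9 had differences that summed to 0. GAZX01009619 gained 79 counts and GAZX01009620 lost 79.

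Where the differences cancel, the level summed over a run does not depend on how reads were assigned within it. Over the 23 runs the male share of the summed separate counts lay between 81.1% and 97.7%. It could not fall below 80%, because every contig in a run is a member, so it supports nothing by itself. Counted as 1 unit each, the runs and the 96 members outside them made 119 units.

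For 3 members the assignment moved the count by more than 10%. GAZX01028738 (715 nt) had 79 counts in adult male and 0 in adult female but 1 count in the pooled file, and GAZX01028740, 2 identifiers on, gained exactly the 78 counts that it lost. Its place among the members thus rests on how reads were assigned in the male library. GAZX01031401 (3053 nt) had 1971 male and 120 female counts and lost 595 on pooling, and GAZX01031400, with a male share of 22.6%, gained 595. GAZX01003414 (421 nt), at 61 male counts, gained 8. It lies in a group with GAZX01003413 (421 nt, 1301 male counts), GAZX01003415 (518) and GAZX01003416 (243), whose counts moved by -51, 20 and 23. These 4 differences cancel. Among the 111 members whose pooled count differed by at most 1% from the sum, chalimus was second in 97.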

How the data were processed

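RNA-seq of pooled whole animals was analysed from 6 tables of 44089 contigs. The authors deposited counts that are whole numbers and, judging by the values, not normalised. The FPKM were computed by the authors and rounded to 3 decimals, per the file headers and the values. The aligner, the counter, the assembly and the treatment of reads matching several contigs are not stated in the labels or headers used here. Lengths were recovered by dividing counts by FPKM, which gave whole numbers within 0.05 nt for 100% of the contigs above 300 FPKM in every file. Scaling used library totals for CPM and shares, and TMM over 5 libraries (edgeR 4.0.16, R 4.3.3) for folds; DESeq2 1.42.0 size factors were an alternative. Log2 ratios had 0.5 counts added. Single folds carry exact (Clopper-Pearson) intervals, computed with Python 3.11.15 and scipy 1.17.1, which cover counting error only. The computation was tested on simulated data. Contigs were named by rank, mostly 2 per criterion: male counts, FPKM, ratio to each library, next-highest library, nearness to the limits, longest runs and change on pooling. Contigs in counts of 5 or fewer and the run from GAZX01021590 were named after their values were seen. So were GAZX01014130, GAZX01017002, GAZX01023175, GAZX01029469, GAZX01031167, GAZX01039767 and the neighbours of runs and of moved contigs. The members, lists and comparisons were chosen with earlier results of these data known. The 6 gene lists written by gene name could not be applied, since no file pairs contigs with names.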

Additional observations from a re-analysis of the deposited data

How the results depend on the processing

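No paired analysis was possible because each group has 1 library, and for the same reason no replicate could be left out. The number of members was 271 with DESeq2 size factors, 356 with no minimum of male counts, 446 and 45 with share limits of 70% and 90%, 844 without chalimus, 286 without adult female and 1 (GAZX01028738) with all 6 files, because the pooled file repeats the male counts. TMM-scaled shares gave 197 members, 158 of them among the 159. The share of male counts held was 3.34% with TMM-scaled and 3.88% with DESeq2-scaled shares. With DESeq2-scaled shares, chalimus was next in 235 members, 90 were at 0 in egg, 217 in copepodid and 59 in adult female, 109 had an adjacent member, 120 kept their count on pooling, the median share was 84.6% and the median length 990 nt. With a minimum of 10 male counts the median share was 85.8%, the median length 838 nt and 20 members were at 0 in chalimus; with 200 they were 84.7%, 999 nt and 0. Among the members counted in copepodid, chalimus was next in 32 of 37, a subset chosen after the data were seen, as were the members with a stable pooled count. With library totals, DESeq2 factors, 2 counts added, and minimums of 10 and 200, the median log2 ratio of members, whose direction the choice of members fixes, was 9.64, 10.12, 8.80, 9.07 and 10.30 against egg, 10.75, 10.98, 9.07, 10.06 and 11.75 against copepodid, and 8.25, 8.55, 7.57, 7.45 and 8.84 against adult female. Against chalimus it was 2.95, 3.34, 3.13, 3.30 and 3.004. Scaling also moved the median over all contigs tested: with TMM, library totals and DESeq2 factors it was -0.14, -0.33 and 0.06 against chalimus, -0.02, -0.16 and 0.15 against adult female, -0.34, -0.77 and -0.03 against egg, and -0.62, -0.08 and -0.45 against copepodid. The cause of these shifts was not tested beyond the changed set of contigs or scaling. Depth limits a count of 0 to at most 0.0383 CPM in copepodid, if no copepodid counts of the contig were left out.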

Other observations

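Inside the block from GAZX01038175 to GAZX01038195, 3 contigs did not share its pattern of adult male above chalimus with 0 elsewhere. GAZX01038186 (1020 nt) had 714 counts in chalimus, 309 in males, 9 in eggs, 4 in females and 2 in copepodids. GAZX01038177 (879 nt) had 128 counts in egg, 34 in chalimus, 16 in adult female and 0 in adult male. GAZX01038194 (1390 nt) had 12956 counts in egg, 6010 in chalimus, 1271 in adult female and 1048 in adult male. Just beyond the block, GAZX01038198, GAZX01038199 and GAZX01038200 had 82, 188 and 185 counts in chalimus against 9, 33 and 20 in adult male, with at most 8 counts in any other library.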
